A study of Mus musculus with 13 samples.

Results

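The comparison is the effect of interferon alpha (IFNa) averaged over both antibody arms of the experiment. For each gene the log2 difference between IFNa and phosphate buffered saline (PBS) was taken among the libraries from mice given control IgG and, separately, among those from mice given UC7-13D5, and the 2 differences were averaged with a weight of 0.5 each. All 13 of the 13 libraries entered, and results are given for the 15318 autosomal genes among the 15835 genes tested. Each difference is taken within an arm, so a level that the antibody alone had shifted cancels out. RNA was sequenced in bulk from gamma delta intraepithelial lymphocytes (IELs) sorted from the small intestine of wild-type (WT) mice. Before isolation, mice were injected intraperitoneally with 200 µg of UC7-13D5, a hamster monoclonal antibody against the gamma delta form of the T cell receptor (TCR), and controls with Armenian hamster IgG. The protocol text gives antibody injections at 48 and 24 hours, where the design text has 48 or 24 hours. IFNa (1 µg, murine) or PBS followed intravenously 5 hours before isolation, so that every mouse, PBS controls included, carried a hamster antibody. The IgG-PBS group had 3 libraries, IgG-IFNa 4, UC7-PBS 3 and UC7-IFNa 3. Strain, age and sex of the mice, and the number of mice behind each library, are not given in the sources used here, and p-values measure the spread between these libraries.

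Type I interferons such as IFNa bind the receptor made of IFNAR1 and IFNAR2, whose kinases JAK1 and TYK2 phosphorylate STAT proteins. The resulting complex ISGF3, which includes STAT2 and IRF9, binds interferon-stimulated response elements (ISREs) in the promoters of interferon-stimulated genes, many of them antiviral effectors. Gamma delta IELs are T cells lodged between the epithelial cells of the gut, rich in granzymes and held in a partly activated state.

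The libraries held between 19867201 and 26895876 estimated counts. Transcripts that define the sorted cells were present in each, with Trdc, the delta chain constant region, between 158.8 and 210.5 CPM (counts scaled to a common library total). The 3 IgG-PBS libraries carried Xist with almost no Y-linked transcripts, and all 6 UC7 libraries the reverse. IgG-IFNa libraries 3 and 4 held both, with Y-linked transcripts at 0.755 and 0.932 of the sum of both kinds. Sex-linked transcripts thus differed within the IgG arm. Results without these libraries are also given for genes named as called that then lost their call, and for some others. Sizes of change not given without them may differ too. UC7-IFNa library 2 stood apart: its correlation with the other UC7-IFNa libraries was 0.94 to 0.9429 in log2 CPM over genes, against 0.973 to 0.9841 between libraries within the other groups, and Rn18s, the 18S ribosomal RNA, took 1.14% of its counts against 0.0866% to 0.333% in the other 12. The share of counts on mitochondrial transcripts was lower with IFNa by 0.476 percentage points on average (exact permutation test within arms, two-sided p = 0.00714, adjusted over 3 measures 0.0214, 700 arrangements). It lay between 0.866% and 1.73% in PBS and between 0.582% and 1.23% in IFNa libraries, which overlap, and its part in the results below was not tested.

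More genes were higher than lower with IFNa. Of the 246 called higher 96 were in one of the gene lists described below and 150 in none, and of the 63 called lower 24 were in a list and 39 in none. Of 15318 autosomal genes, 246 were higher (1.61% of those tested) and 63 lower (0.411%), making 309 (2.02%) by edgeR's quasi-likelihood F test at a Benjamini-Hochberg adjusted p of 0.05. The 1.61% and 0.411% are the background for the list counts below, unless another fit is named. Among the rises 73 exceeded 1 on the log2 scale, and 20 of the falls were beyond -1. Of the called genes 308 had the same sign in the IgG and in the UC7 arm, and in 240 of the 309 no IFNa library overlapped a PBS library in either arm, 192 of them higher and 48 lower. Over all genes such a separation in both arms occurred in 302 upward (1.97%) and 186 downward (1.21%). The 15 largest rises and 15 largest falls named below were chosen among genes with this separation. For them it was a condition of the choice and not a result. The call nearest the threshold was Zbtb8a, lower by 0.66 at an adjusted p of 0.04995 by edgeR, and the next gene outside was Dglucy at -0.88 and 0.0506.

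**Figure D1:**
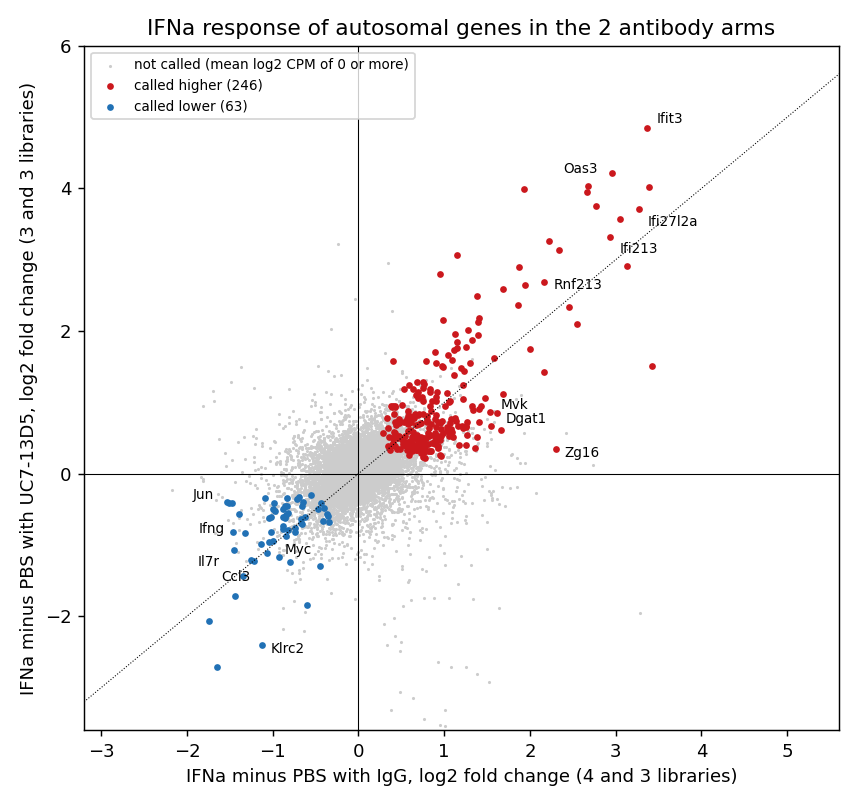
Each point is an autosomal gene, with its log2 fold change (IFNa minus PBS) in the IgG arm on the horizontal and in the UC7-13D5 arm on the vertical axis; the dotted line marks equal changes and 7 genes lie outside the axes. The 246 genes called higher (red) and 63 called lower (blue) in the averaged contrast lie in the upper right and lower left of the plot; uncalled genes (grey) are drawn from a mean log2 CPM of 0, and the 1 called gene of opposite sign in the arms lies outside the axes.

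Part of the complex that carries the signal was itself raised. Irf9, the DNA-binding subunit of ISGF3, stood at 65.8, 79.8 and 80.7 CPM in the IgG-PBS libraries and at 151, 186, 162 and 147 in the IgG-IFNa libraries. It stood at 73.1, 57.4 and 57.0 in UC7-PBS and at 192, 186 and 189.7 in UC7-IFNa. No library of one treatment reached the other in either arm, and the averaged log2 fold change was 1.35 (standard error, SE, 0.11; edgeR adjusted p = 1.93e-06). Stat2, another subunit, was at 0.66 (95% interval 0.30 to 1.02) and missed the threshold (edgeR adjusted p = 0.0618). UC7-IFNa library 2 held 48.1 CPM of Stat2, within the PBS range of 55.2, 42.4 and 52.5, and without that library Stat2 was at 0.80 (adjusted p = 0.000312). The receptor chain gene Ifnar1 behaved alike, at 0.47 with all libraries (adjusted p = 0.118) and 0.59 without it (edgeR adjusted p = 0.00117).

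Irf7, the factor that amplifies type I interferon production, rose by 1.67 (SE 0.12; edgeR adjusted p = 8.82e-07). Its level went from 150.3, 122 and 151 CPM to 366, 385, 352 and 380.2 in the IgG arm and from 98.0, 136 and 133 to 522, 378 and 509.7 in the UC7 arm, so the lowest IFNa library held more than 2 times the highest PBS library. Stat3, which carries signals of interleukin 6 family cytokines and also of interferon, rose by 0.73 (SE 0.13, adjusted p = 0.00685). The other 10 of 12 STAT and IRF genes outside ISGF3 did not pass. Among 13 feedback inhibitors, Usp18, which blocks the receptor and removes ISG15 from proteins, rose by 2.74 (SE 0.22; edgeR adjusted p = 1.93e-06). It was at 2.62, 1.41 and 2.72 and 1.51, 1.47 and 1.97 CPM in the PBS libraries and at 12.7, 13.6, 7.78 and 8.0 and 18.8, 13.7 and 15.4 in the IFNa libraries of the IgG and UC7 arms. Socs1, a textbook inhibitor of JAK kinases, did not pass, at -0.29 (95% interval -0.60 to 0.02, edgeR adjusted p = 0.388). UC7-IFNa library 2 held 50.5 CPM of Socs1 against 26.8 and 26.8 in the others of its group, and without it Socs1 was lower, at -0.48 (edgeR adjusted p = 0.00778).

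The Ifit, Oas and Mx genes, whose products recognise or degrade viral RNA or block viral assembly, had the largest median of the lists tested, with 12 of 18 tested members higher, none lower and a median of 2.02 against 0.01 over all autosomal genes. Ifit3 had the largest rise of the genes named by size: it stood at 3.66, 4.25 and 6.19 CPM in IgG-PBS, 49.9, 63.9, 47.7 and 33.3 in IgG-IFNa, 2.77, 2.53 and 1.44 in UC7-PBS and 79.3, 37.2 and 76.2 in UC7-IFNa. The averaged change was 4.11 (SE 0.25, 95% interval 3.59 to 4.63; edgeR adjusted p = 1.77e-07). Its neighbour Ifit3b, nearly identical in sequence so that reads may be split between the 2, changed by 3.31. Oas3, a synthase of the 2-5A messenger that activates RNase L, rose by 3.36 (SE 0.32), from 8.02, 5.26 and 10.7 to 53.2, 86.5, 44.5 and 21.1 CPM with IgG and from 3.50, 7.07 and 4.82 to 116, 51.5 and 84.6 with UC7-13D5. Every IFNa library lay above every PBS library of its arm for Ifit3, Ifit3b and Oas3. Ifit1, which binds RNA lacking the host cap, rose by 2.12 (SE 0.26), and Oasl1 by 1.94 (SE 0.20). Mx1, a dynamin-like GTPase, rose by 2.11 (edgeR adjusted p = 0.00141), although its IgG-IFNa libraries at 2.53, 3.45, 4.42 and 1.42 CPM overlapped the IgG-PBS libraries at 0.776, 1.24 and 1.96.

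**Figure D2:**
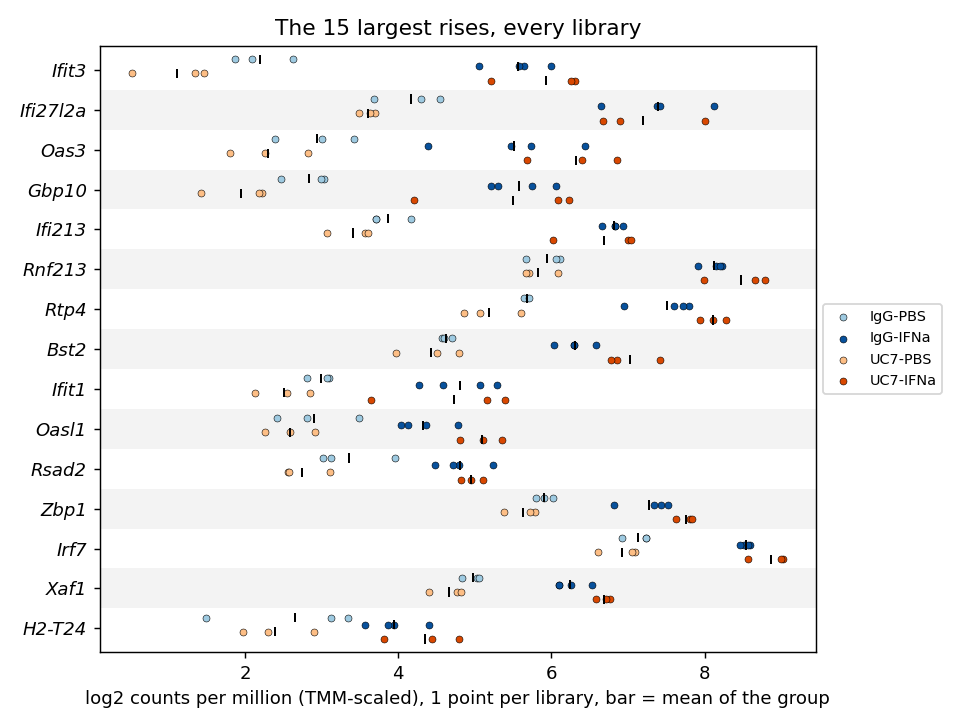
Levels of the 15 largest rises as log2 CPM, 1 point per library and a bar at each group's mean. For all 15 genes, chosen for the absence of overlap among other criteria, IFNa libraries (dark) lie to the right of the PBS libraries (light) of the same arm; Ifit3 runs from 1.44 to 79.3 CPM.

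Since many of the raised genes are known ISGF3 targets, their RefSeq promoter windows (build GRCm38.p6, 250 bases before to 50 after the start) were searched for the core of the ISRE, that is GAAA followed by any pair of bases and GAAA again, on both strands. The windows matched by symbol for 182 of the 246 genes called higher, 45 of the 63 called lower and 10134 of all autosomal genes tested. The core was present for 40 of the 182 (22%), for 4 of the 45 (8.89%) and for 404 of the 10134 (3.99%). Among the raised genes with a window, it was present in 18 of 47 with a log2 fold change over 1 and in 22 of the other 135. It was present in 34 of 68 raised genes that were in a gene list (50%). Of the raised genes in no list it was present in 6 of 114 (5.26%), near the share over all genes. With the genes called without UC7-IFNa library 2, the shares were 14.9% of 416 higher and 5.51% of 236 lower genes. Of the 15 largest rises 10 had a window, and 6 of these held the core. Stretches before the start of those 6 genes, and of Isg15 and Cxcl10, are shown because they hold the core and their genes were called higher; genes without it are named after them. Each runs 5′ to 3′ on the gene's strand, with every match inside the stretch in capitals; pairs of TTTC are the same element read on the other strand.
Ifit3, chr19:34583387-34583436, plus strand: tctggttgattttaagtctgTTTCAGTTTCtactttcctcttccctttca
Oas3, chr5:120777705-120777754, minus strand: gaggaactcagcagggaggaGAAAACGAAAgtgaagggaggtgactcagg
Ifi213, chr1:173599316-173599365, minus strand: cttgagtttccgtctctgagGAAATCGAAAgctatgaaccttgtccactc
Bst2, chr8:71537567-71537616, minus strand: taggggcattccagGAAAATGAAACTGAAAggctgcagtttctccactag
Ifit1, chr19:34640784-34640833, plus strand: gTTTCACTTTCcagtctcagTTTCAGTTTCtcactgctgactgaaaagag
Rsad2, chr12:26456543-26456592, minus strand: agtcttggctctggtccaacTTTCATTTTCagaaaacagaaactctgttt
Isg15, chr4:156200855-156200904, minus strand: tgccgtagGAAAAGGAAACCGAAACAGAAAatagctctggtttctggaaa
Cxcl10, chr5:92349073-92349122, minus strand: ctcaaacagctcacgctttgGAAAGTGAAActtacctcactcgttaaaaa

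The match each stretch was centred on began 122, 75, 73, 124, 85, 120, 66 and 213 bases before it, in that order. Overlapping copies of the core run together in Bst2 and Isg15. The windows of Rnf213, Oasl1, Irf7 and Xaf1, which rose by 2.43, 1.94, 1.67 and 1.65, did not contain these letters. As further motifs, the STAT site TTCNNNGAA was present in 12.1% of the raised and 24.4% of the lowered genes' windows against 8.49% of all, where the lowered share rests on 11 of 45 genes and was 10.6% of 236 genes called without UC7-IFNa library 2. The AP-1 site TGANTCA stood in 14.3%, 11.1% and 6.57%, and the cyclic AMP element TGACGTCA in 4.95%, 2.22% and 3.60%. With the genes called without UC7-IFNa library 2, the AP-1 site stood in 9.38% of 416 higher and 9.75% of 236 lower genes. A match in a window is a string of letters and not evidence of binding.

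Of the membrane and viral restriction factors 19 of 27 were higher and none lower, with a median of 0.92. Ifi27l2a, a small interferon-induced membrane protein gene, stood at 19.6, 23.3 and 12.8 CPM in IgG-PBS and 280.0, 167, 172 and 100 in IgG-IFNa, then at 11.2, 13.0 and 12.4 in UC7-PBS and 102, 257 and 119.5 in UC7-IFNa. It rose by 3.49 (SE 0.27; edgeR adjusted p = 1.93e-06), with wide separation in both arms. Rnf213, a very large ubiquitin ligase that coats intracellular pathogens, went from 69.1, 50.8 and 66.7 to 284, 299, 294 and 241 CPM with IgG and from 52.1, 51.0 and 67.7 to 443, 254 and 403 with UC7-13D5, a rise of 2.43 (SE 0.15). Rtp4, a receptor transporter that also restricts viruses, rose by 2.39 (SE 0.16), and Bst2, the tethering factor tetherin, by 2.14 (SE 0.16). Rsad2, which encodes the antiviral enzyme viperin, rose by 1.79 (SE 0.18) and Xaf1, a partner of the caspase inhibitor XIAP, by 1.65 (SE 0.11). All of these kept IFNa and PBS libraries apart in both arms, a condition under which the 15 largest rises were chosen. In the ISG15 conjugation list 6 of 9 rose and none fell. Isg15, the ubiquitin-like modifier, changed by 1.01 (SE 0.15, edgeR adjusted p = 0.00247), its activating enzyme gene Uba7 by 0.98 (adjusted p = 0.0143) and its conjugating enzyme gene Ube2l6 by 1.36 (adjusted p = 5.67e-05).

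Sensors and cell-autonomous defence genes rose to differing extents. In the PYHIN family of nuclear and cytosolic DNA sensors 7 of 10 were higher (median 1.29), led among well-measured members by Ifi213. Its libraries read 18, 13.1 and 13.1 CPM in IgG-PBS, 102, 122, 114 and 114 in IgG-IFNa, 8.38, 11.9 and 12.2 in UC7-PBS and 128, 64.7 and 132 in UC7-IFNa. The averaged change of Ifi213 was 3.13 (SE 0.18; edgeR adjusted p = 1.77e-07), and even the lowest IFNa library, UC7-IFNa library 2, held more than 5 times the highest UC7-PBS library. Ifi214 rose by 1.43 and Mndal by 0.94 (adjusted p = 0.00238 and 0.00202); these genes are close paralogs, so reads may be shared. Of 17 cytosolic nucleic acid sensors 5 rose and none fell, including Zbp1, the sensor of Z-form nucleic acid, by 1.76 (SE 0.13), and Dhx58, which encodes LGP2, by 1.42 (SE 0.15). Zbp1 went from 64.8, 55.5 and 59.6 to 173, 184, 162 and 113 CPM with IgG and from 41.8, 55.3 and 52.9 to 225, 229 and 198 with UC7-13D5. Of 21 guanylate-binding proteins and immunity-related GTPases 10 were higher (median 0.59), Gbp10 by 3.26 (SE 0.30), Gbp6 by 1.5 (SE 0.22) and Gvin2 by 1.08 (SE 0.18). Gbp6 and Gbp10 are near copies of each other and their split is uncertain. In the Schlafen family 3 of 8 rose, among them Slfn1 by 1.23 (edgeR adjusted p = 0.00881). Of 16 interferon-linked TRIM genes 5 rose, including Trim12c (1.05), Trim30a (0.89) and Trim30d (0.99).

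Genes of ADP-ribosylation, several of which are textbook interferon targets, did not pass with all libraries: none of 10 was called, and Parp9 and Parp14 were at 0.65 (95% interval 0.21 to 1.1) and 0.42 (0.13 to 0.71). In UC7-IFNa library 2 Parp9 was at 43.6 CPM, below all 3 UC7-PBS libraries at 50.1, 51.3 and 55.7, whereas the other UC7-IFNa libraries held 132 and 111. Without that library 3 of the 10 were called higher, with Parp9 at 0.82 (edgeR adjusted p = 0.00129), when 3.61% of all genes were called higher and 2.13% lower.

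Fewer antigen presentation genes were called. Of 17 MHC class I heavy chain genes and B2m 2 rose: the nonclassical gene H2-T24 by 1.54 (SE 0.27) and H2-T23, which encodes the Qa-1 ligand of CD94 and NKG2 receptors, by 0.71 (SE 0.10, edgeR adjusted p = 0.000892). H2-T23 stood at 865, 843 and 974 CPM in IgG-PBS, 1377, 1300, 1583 and 1308 in IgG-IFNa, 839, 966 and 973 in UC7-PBS and 1559, 1750 and 1494 in UC7-IFNa, with no overlap in either arm. The classical gene H2-K1 was at 0.32 (95% interval 0.12 to 0.51; adjusted p = 0.103) and did not pass, although its IFNa libraries lay above the PBS libraries in both arms. Of 16 immunoproteasome and peptide-loading genes Psme1, a proteasome activator subunit, rose by 0.62 (edgeR adjusted p = 0.0371) and Nlrc5, the transactivator of MHC class I genes, by 0.60 (adjusted p = 0.0408). Neither kept its call without IgG-IFNa libraries 3 and 4 (edgeR adjusted p = 0.161 and 0.16), whereas without UC7-IFNa library 2 the list of 16 had 6 higher and 1 lower. In that fit 3.61% of all genes were called higher and 2.13% lower.

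**Figure D3:**
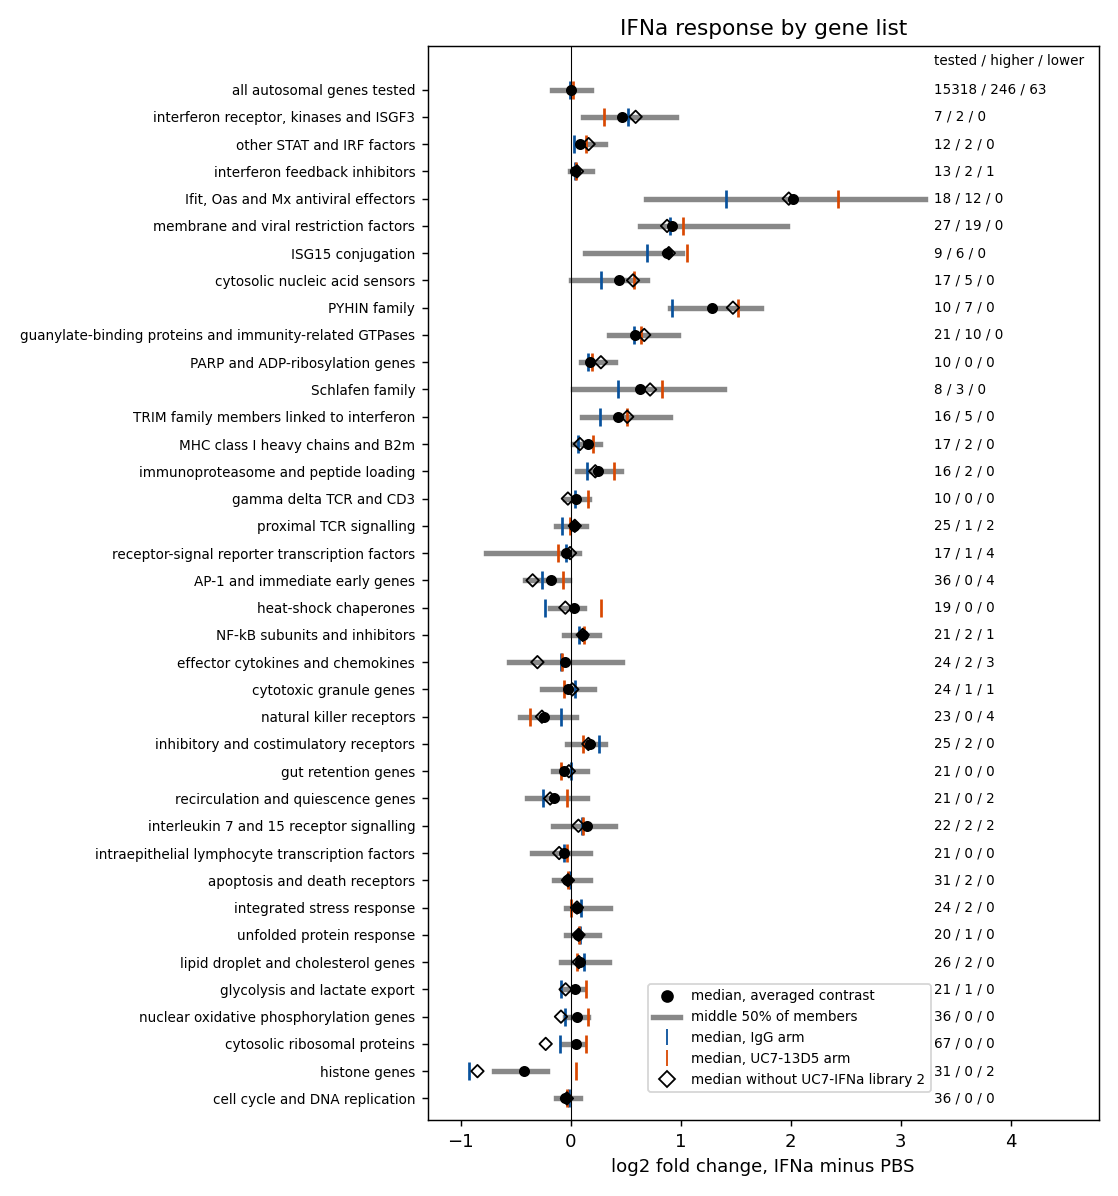
For each gene list, the median averaged log2 fold change (black point), the middle 50% of members (grey bar), the medians in each arm (ticks) and the median without UC7-IFNa library 2 (diamond); numbers on the right are members tested, called higher and called lower. The interferon lists at the top lie to the right of the all-gene row, and the median of the histone list lies at -0.43 with all libraries and at -0.85 without UC7-IFNa library 2.

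Of 17 transcription factor genes that report receptor stimulation, 4 fell, 1 rose and 12 did not pass, and the median of the list was -0.04. Over all autosomal genes 0.411% were called lower and 1.61% higher. Nr4a1, an orphan nuclear receptor induced by TCR signals, stood at 686, 619 and 641 CPM in IgG-PBS and 453, 496, 253 and 238 in IgG-IFNa. With UC7-13D5 it stood at 460.4, 531 and 458 after PBS and 272, 286 and 233 after IFNa. It was lower in every IFNa library of each arm, at -0.86 on average (SE 0.16; edgeR adjusted p = 0.0101), with like values in the arms (-0.85 and -0.87). IgG-IFNa libraries 3 and 4, those with Y-linked transcripts, were the lowest of their group, and without them Nr4a1 was at -0.66 (adjusted p = 0.0124). Myc, the growth regulator, fell by 0.97 on the log2 scale (SE 0.15), from 152, 132 and 163 to 76.4, 104, 56.7 and 61.9 CPM with IgG and from 110.2, 69.5 and 93.7 to 48.2, 52.2 and 41.2 with UC7-13D5. Egr1, an immediate early zinc finger factor, was at -0.77 (SE 0.13; edgeR adjusted p = 0.00345). Both kept a gap between treatments in each arm, which was required of the 15 largest falls, Nr4a1 among them. The 1 that rose was Crem, a cyclic AMP-responsive factor, at 0.79 (edgeR adjusted p = 0.00504).

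Of 36 AP-1 and immediate early genes 4 fell and none rose (median -0.18). Fos, a subunit of AP-1, was at 1727, 1369 and 1425 CPM in IgG-PBS, 799.9, 878, 643 and 661 in IgG-IFNa, 905, 914 and 798 in UC7-PBS and 543, 579 and 599.7 in UC7-IFNa. The groups were apart in both arms, as its choice by size required, and the averaged change was -0.81 (SE 0.11, edgeR adjusted p = 0.000665). Its partner Jun was at -0.94 (SE 0.19, adjusted p = 0.016), with -1.47 in the IgG arm, where no library overlapped, and -0.41 in the UC7 arm, where they did. Cd69, the early activation antigen that holds lymphocytes in tissue, fell by 0.82 on the log2 scale (SE 0.14), and Zfp36, a destabiliser of cytokine mRNA, was at -0.75 (SE 0.13). Without UC7-IFNa library 2, 13 of the 36 were lower and the median was -0.35, at a background of 2.13% lower. Upstream of these factors, 2 of 25 proximal TCR signalling genes fell and 1 rose: Ubash3a, a phosphatase that restrains TCR signalling, at -0.98 (edgeR adjusted p = 0.0179), Sit1, an inhibitory adaptor, at -0.96 (adjusted p = 0.0367), and Sh2d2a, a T cell adaptor, at 0.58 (adjusted p = 0.0115). With all libraries 0.411% of autosomal genes were called lower and 1.61% higher.

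**Figure D4:**
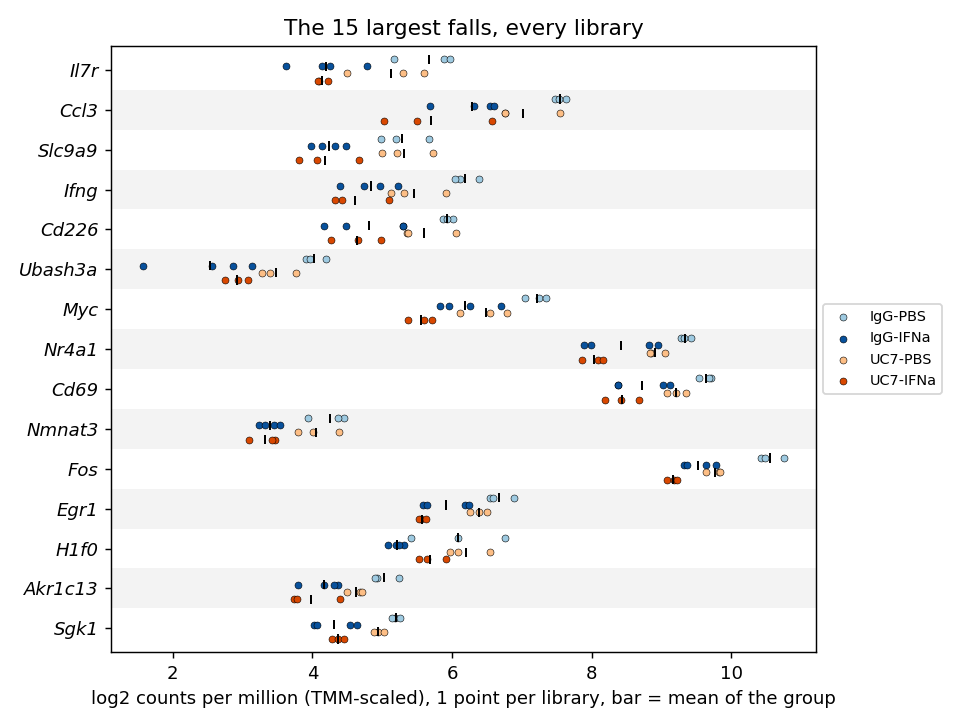
Levels of the 15 largest falls as log2 CPM, 1 point per library and a bar at each group's mean. For all 15 genes, chosen for the absence of overlap among other criteria, IFNa libraries (dark) lie to the left of the PBS libraries (light) of the same arm. Fos runs from 1727 CPM in an IgG-PBS library to 543 in a UC7-IFNa library.

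Among 24 effector cytokine and chemokine genes 3 fell and 2 rose, when 0.411% of all autosomal genes were called lower and 1.61% higher. Ifng, the type II interferon, stood at 83.8, 69.0 and 65.8 CPM in IgG-PBS and 31.4, 37.5, 26.7 and 21.1 in IgG-IFNa, and at 39.9, 60.3 and 34.8 in UC7-PBS and 21.4, 34.1 and 20 in UC7-IFNa. All IFNa libraries were below the PBS libraries of their arm, though in the UC7 arm UC7-IFNa library 2 came within 1 CPM of the lowest PBS library; the averaged change was -1.08 (SE 0.17; edgeR adjusted p = 0.00344). Ccl3, a chemokine released by activated T cells, was at -1.22 (SE 0.23, adjusted p = 0.00938), the same in both arms (-1.22 and -1.22), and without IgG-IFNa libraries 3 and 4 it missed the threshold at -1.1 (adjusted p = 0.0674). Tnfsf14, the cytokine LIGHT, fell by 0.84 on the log2 scale (edgeR adjusted p = 0.0212). Cxcl10, an interferon-induced chemokine that attracts CXCR3-bearing cells, rose by 0.73 (SE 0.14, adjusted p = 0.00968), from 20.2, 17.0 and 22.5 to 31.2, 29.7, 33.6 and 24.1 CPM with IgG and from 11.6, 19.1 and 13.1 to 26.9, 28.3 and 25.7 with UC7-13D5.

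Natural killer receptor genes gave 4 falls and no rise among 23 (median -0.24), when 0.411% of all autosomal genes were called lower and 1.61% higher. Cd226, the costimulatory receptor DNAM-1, went from 58.5, 64.3 and 60.6 to 39.2, 39.4, 22.3 and 17.9 CPM with IgG and from 40.8, 66.6 and 41.5 to 31.6, 19.3 and 25.2 with UC7-13D5. It fell by 1.00 on the log2 scale (SE 0.20, edgeR adjusted p = 0.0131) without overlap in either arm, a condition of its choice by size. Crtam, a receptor of activated cytotoxic lymphocytes, fell by 0.48 on the log2 scale (SE 0.09, adjusted p = 0.0117). Klrc1, which encodes the inhibitory receptor NKG2A that binds Qa-1, was at -1.22 (SE 0.25), and its activating relative Klrc2, NKG2C, at -1.77 (SE 0.28; edgeR adjusted p = 0.0169 and 0.00302). Klrc1 overlapped between treatments in the IgG arm, at 11.4, 15.3 and 21.3 and 13.8, 12.8, 9.52 and 6.24 CPM, and was apart in the UC7 arm, at 67.8, 64.0 and 23.4 and 15.9, 11 and 16.2. Klrc2 was measured at under 6 CPM in every library, and reads may be shared between the 2 paralogs. Without IgG-IFNa libraries 3 and 4 Klrc1 was at -1.06 (edgeR adjusted p = 0.112).

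Receptors for the cytokines that sustain IELs moved in opposite directions. Il7r, the interleukin 7 receptor alpha chain, had the largest fall of the genes named by size: 36.1, 58.9 and 62.6 CPM in IgG-PBS against 17.6, 27.5, 19 and 12.3 in IgG-IFNa, and 39.5, 48.2 and 22.7 in UC7-PBS against 18.6, 17.1 and 16.9 in UC7-IFNa. The averaged change was -1.26 (SE 0.20, 95% interval -1.69 to -0.83, edgeR adjusted p = 0.00342), with the gap in both arms that its choice by size required. Il2rb, the chain shared by the interleukin 2 and 15 receptors, rose by 0.53 (adjusted p = 0.0412) and Il21r, the interleukin 21 receptor, by 0.58 (adjusted p = 0.016); both missed the threshold without IgG-IFNa libraries 3 and 4 (edgeR adjusted p = 0.176 and 0.085). Cish, an inhibitor of signalling by these receptors through STAT5, fell by 0.70 on the log2 scale (SE 0.13; adjusted p = 0.00999), and Tcf7, the factor TCF-1 of quiescent and recirculating T cells, was at -0.42 (edgeR adjusted p = 0.0392). In the list of 22 interleukin 7 and 15 receptor signalling genes 2 rose and 2 fell, and in that of 21 recirculation and quiescence genes 2 fell and none rose. Of all autosomal genes 1.61% were called higher and 0.411% lower.

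Costimulatory and NF-kB genes gave a few rises. Tnfrsf18, the costimulatory receptor GITR, rose by 0.76 (SE 0.15; edgeR adjusted p = 0.0116), and Cd274, which encodes the inhibitory ligand PD-L1, by 0.50 (SE 0.12, adjusted p = 0.0397), the 2 called of 25 inhibitory and costimulatory genes. In this list 6 were higher without UC7-IFNa library 2 and 0 without IgG-IFNa libraries 3 and 4, when 3.61% and 0.693% of all genes were called higher. Without IgG-IFNa libraries 3 and 4 Tnfrsf18 and Cd274 were at 0.58 and 0.51 (edgeR adjusted p = 0.0633 and 0.141). Nfkb2 and Relb, the subunits of noncanonical NF-kB, rose by 0.82 and 0.80 (SE 0.13 and 0.13; edgeR adjusted p = 0.0026 and 0.00326). Relb went from 54.1, 44.2 and 59.5 to 78.6, 87.0, 90.2 and 111 CPM with IgG and from 35.7, 45.4 and 56.3 to 72.0, 80.4 and 87.2 with UC7-13D5. Nfkbid, a nuclear inhibitor of the same family, fell by 0.87 on the log2 scale (adjusted p = 0.0109). Of 24 cytotoxic granule genes only the serine protease inhibitor genes Serpinb9 (0.58, edgeR adjusted p = 0.0128) and Serpinb6a (-0.45, adjusted p = 0.0384) were called. Over all autosomal genes 1.61% were called higher and 0.411% lower. The granzyme genes Gzma and Gzmb did not pass: Gzmb was at 0.18 (95% interval -0.00373 to 0.37) and Gzma at 0.19 (-0.12 to 0.50).

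In metabolic lists a few genes were called. Dgat1, which makes triglyceride, stood at 265, 337 and 217 CPM in IgG-PBS, 577, 661, 939 and 1158 in IgG-IFNa, 355, 363 and 421 in UC7-PBS and 606, 647 and 809 in UC7-IFNa. It rose by 1.23 (SE 0.17; edgeR adjusted p = 0.000843) with no overlap, and IgG-IFNa libraries 3 and 4 were the highest of their group; without them it was at 1.02 (adjusted p = 0.00301). Trib3, a pseudokinase of the integrated stress response, rose by 1.00 (SE 0.13; adjusted p = 0.000544). Slc16a3, a lactate exporter, rose by 0.53 (edgeR adjusted p = 0.0149), Sqle, the squalene epoxidase of sterol synthesis, by 0.49 (adjusted p = 0.0383) and Creld2, a chaperone of the endoplasmic reticulum, by 0.40 (adjusted p = 0.0416). With these genes counted, the lists held 1 called gene of 21 for glycolysis, 2 of 26 for lipid droplet and cholesterol genes, 2 of 24 for the integrated stress response and 1 of 20 for the unfolded protein response. Over all autosomal genes 2.02% were called. Gsdmd, the pore-forming protein of pyroptosis, rose by 0.45 (edgeR adjusted p = 0.0297), and with Xaf1 it was 1 of 2 called among 31 apoptosis and death genes.

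Several lists gave no call. None of the 10 gamma delta TCR and CD3 genes passed: Trdc was at -0.06 (95% interval -0.26 to 0.14), Trgc1, a gamma chain constant region, at 0.31 (0.06 to 0.56) and Cd3e at -0.12 (-0.44 to 0.20). No call was made among 21 gut retention genes, where Cd8a, carried by most of these cells as a homodimer, was at 0.42 (edgeR adjusted p = 0.0601; 0.35 and 0.0333 without UC7-IFNa library 2), nor among 21 IEL transcription factors, 36 oxidative phosphorylation genes, 36 cell cycle genes or 19 heat-shock chaperones. The chaperones had medians of -0.23 in the IgG arm and 0.28 in the UC7 arm. Dnajb1, a chaperone gene, stood at 1152, 861 and 1164 CPM in IgG-PBS and at 293, 671, 310.5 and 530 in IgG-IFNa, without overlap. In UC7-PBS it stood at 466, 232 and 278. In UC7-IFNa library 2 it stood at 845 CPM, against 250 and 310 in the others of its group. Without that library the averaged median of the chaperones went from 0.03 to -0.05, with 1 called higher and 2 lower. Of 67 cytosolic ribosomal protein genes none was called with all libraries (median 0.05), and 11 were lower without UC7-IFNa library 2 (median -0.23). Of 31 histone genes 2 fell, the clustered linker histone gene H1f2 at -0.96 (edgeR adjusted p = 0.00881) and H1f0, a linker histone gene outside the clusters, at -0.75 (adjusted p = 0.0384); the medians were -0.93 in the IgG arm and 0.05 in the UC7 arm, and without UC7-IFNa library 2 the averaged median was -0.85 with 11 lower. For the chaperone, ribosomal and histone lists these values thus moved with 1 library. With UC7-IFNa library 2 left out, 3.61% of all genes were called higher and 2.13% lower.

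Transcripts listed as markers of other cells were present. The summed level of 8 alpha beta T cell genes, among them the constant regions Trac, Trbc1 and Trbc2, ran from 1519 to 2367 CPM over the libraries. Of its members Cd6 lay between 26.6 and 137 CPM, Cd8b1 between 3.88 and 60.6 and Cd5 between 0.475 and 2.98. Whether the sum came from alpha beta T cells or from the sorted cells was not tested. The summed level of 16 goblet and Paneth cell genes ran from 117 to 802 CPM in IgG-PBS, 761 to 1485 in IgG-IFNa, 1012 to 2540 in UC7-PBS and 411 to 1276 in UC7-IFNa, with overlap in both arms and a median that was higher with IFNa in the IgG arm and lower in the UC7 arm. Zg16, a goblet cell lectin, was the only one called, at 1.32 (edgeR adjusted p = 0.031), with 2.30 in the IgG and 0.34 in the UC7 arm. It was called in 5 of 13 fits that left out 1 library. Omitting UC7-IFNa library 2 was among those that lost the call (1.05, edgeR adjusted p = 0.0922). None of 19 absorptive enterocyte genes was called. Of 15 myeloid and dendritic cell genes C1qc, a complement subunit of macrophages, rose by 1.34 (edgeR adjusted p = 0.0235) from 1.89, 1.85 and 1.77 to 5.06, 3.56, 6.55 and 1.65 CPM and from 1.64, 2.98 and 1.74 to 4.49, 7.72 and 5.65, overlapping in the IgG arm. Fcgr1, a high-affinity Fc receptor gene, was also called higher, with 0 to 3 counts in the PBS and 3 to 21 in the IFNa libraries. The median log2 fold change of the 15 myeloid genes was 0.78, with 12 of them positive, and 0.79 without UC7-IFNa library 2. By arm it was 0.76 with IgG and 0.20 with UC7-13D5. The summed myeloid markers ran from 151 to 158 CPM in IgG-PBS, 139 to 211 in IgG-IFNa, 193 to 258 in UC7-PBS and 157 to 202 in UC7-IFNa. The median of these sums was higher with IFNa in the IgG arm and lower in the UC7 arm. Igha, the immunoglobulin A heavy chain, rose by 0.99 (SE 0.16; adjusted p = 0.0041), whereas Jchain, its plasma cell partner, was at 0.71 (edgeR adjusted p = 0.305). UC7-IFNa library 2 held 49.0 CPM of Jchain against 17.0 and 11.3 in the others of its group; without it Jchain was at 0.28, and the median of the 7 B and plasma cell genes went from 0.61 to 0.17. Markers of alpha beta T cells (8 genes), innate lymphoid cells (4) and stroma (4) gave no call; several stromal and innate markers lay below the count filter. In bulk libraries a change in the number of such cells and a change per cell cannot be told apart, and the part of these transcripts in the interferon response was not tested.

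The averaged contrast assumes nothing about equality of the arms, and the difference between arms was tested for each gene. No autosomal gene passed (0 of 15318, 0%; edgeR, smallest adjusted p 0.999939), with 486 at an unadjusted p under 0.05, and DESeq2 called 3 (Slc15a2, St8sia1 and Gm49510, named after their values were seen; adjusted p = 0.0159, 0.0458 and 0.0432). Slc15a2 was also the 1 called gene whose sign differed between the arms. Among the 309 called genes 52 had an unadjusted p for the difference under 0.05. The point estimates nonetheless spread: 114 of the 246 raised genes had the larger rise in the UC7 arm and 132 in the IgG arm. For Ifit3 the arms read 3.37 (SE 0.33) with IgG and 4.84 (SE 0.36) with UC7-13D5, for Rtp4 1.87 and 2.90, for Dgat1 1.61 and 0.86, and for H1f2 -1.53 and -0.40. The arms also differed in sex-linked transcripts, which were Y-linked in all UC7 libraries and varied between treatments in the IgG arm. Antibody and sex-linked content therefore cannot be told apart in this comparison. A missed threshold does not show that the arms respond alike: the median SE was 0.24 in the IgG arm and 0.26 in the UC7 arm, and averaging brought it to 0.18.

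The number of called genes moved most with UC7-IFNa library 2. Without it 566 were higher (3.61%) and 335 lower (2.13%), including 242 of the 246 and all 63 called with 13 libraries. Leaving out any other single library gave between 139 and 223 higher and between 28 and 53 lower. Without IgG-IFNa libraries 3 and 4 the counts over all genes were 109 (0.693%) and 18 (0.114%), of which 109 and 16 were among those called with all libraries. Without UC7-IFNa library 2, further genes were called in lists described above: 9 of 17 nucleic acid sensors, 5 of 8 Schlafen genes, 4 of the NF-kB list, 5 of 20 unfolded protein response genes, 4 of 31 apoptosis genes, 4 of the lipid list and 5 of the interleukin 7 and 15 list were higher, and 6 of 24 cytokine and 6 of 21 recirculation genes lower. Without IgG-IFNa libraries 3 and 4 fewer were called: 3 sensors, 6 of 21 GTPases and 4 of 9 ISG15 conjugation genes were higher, and 2 of 36 AP-1, 2 of 23 natural killer receptor and 1 of 24 cytokine genes lower. Among the genes named above, those that missed the threshold without IgG-IFNa libraries 3 and 4 were Tnfrsf18, Cd274, Psme1, Nlrc5, Serpinb9, Serpinb6a, Il2rb, Il21r, Sh2d2a, Slc16a3, Gsdmd, Creld2, Zg16, Tcf7, Crtam, Cish, Zfp36, Jun, H1f0, Tnfsf14, Nfkbid, Sit1, Ccl3 and Klrc1, with edgeR adjusted p from 0.0618 (Serpinb9) to 0.189 (Tcf7). Their log2 changes kept their sign, as for Jun (-0.78), Sit1 (-0.83) and Cish (-0.62). With UC7-IFNa library 2 and IgG-IFNa libraries 3 and 4 all left out, 568 genes were higher and 335 lower. Some calls named above were lost in most fits that left out 1 library. Sqle, Cd274, Nlrc5, H1f0 and Serpinb6a were called in 2 of 13, Creld2 and Tcf7 in 3, and Psme1, Gsdmd, Sit1 and Il2rb in 4. No gene called with all libraries changed sign in any of these fits.

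**Figure D5:**
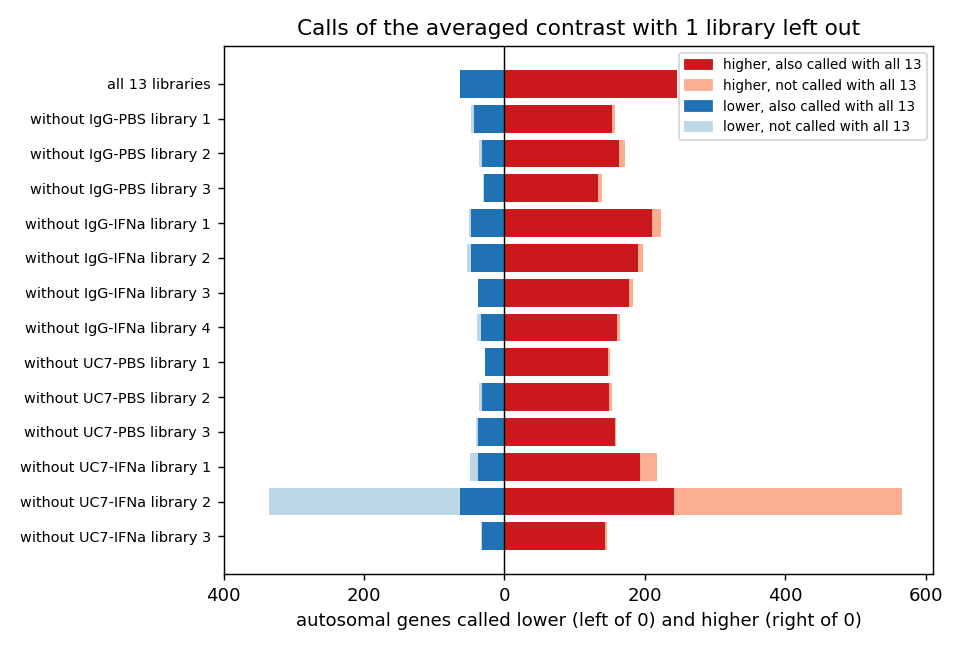
Number of autosomal genes called higher (right) and lower (left) with all 13 libraries and with each library left out in turn; dark colours mark genes also called with all 13. The bar without UC7-IFNa library 2 reaches 566 and 335, above the 246 and 63 of the whole set, and all others are shorter.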

How the data were processed

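Bulk RNA sequencing of 13 libraries was made with RNeasy (Qiagen) extraction and the SMART-Seq HT kit, which does not mark strand, per the labels' protocols. The authors deposited estimated counts per gene (38% of values not whole), and a normalized signal table in which each library's counts are divided by 1 factor. The submitters' processing notes name Partek, STAR 2.7.8a, DESeq2 and mm39 without a role.

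Counts were rounded and fitted over all 4 groups with edgeR 4.0.16 (R 4.3.3; TMM scaling, filterByExpr with a minimum count of 10, robust quasi-likelihood F test). The averaged contrast weighted each arm 0.5, p-values were Benjamini-Hochberg adjusted over 15835 genes, and a gene was called at 0.05. CPM values are scaled by TMM. Genes on chromosomes X, Y and M entered the fit and are not reported; 1 further gene is not reported here. Total counts of 19867201 to 26895876 limit precision for low genes, where the standard errors are larger. Named genes were the 15 largest rises and the 15 largest falls that showed no overlap and reached a mean log2 CPM of 3, the list members of lowest p (4 per list at most), and a few fixed genes. The comparison and the 37 pathway and 7 cell marker lists were chosen with earlier results of these data known. Alternatives used limma 3.58.1 and DESeq2 1.42.0, other scalings and filters, the normalized table with a pseudocount of 1, and omitted libraries. The scripts were tested on simulated data. Samples were grouped by their titles, and replicate numbers did not pair them. Promoter sequences are from RefSeq GRCm38.p6, a build other than that of the counts, and were joined by gene symbol.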

Additional observations from a re-analysis of the deposited data

Results flagged for a closer look

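In the IgG-IFNa group of 4 libraries, 3 of 113 values tested had a highest or lowest library farther from the others than Dixon's 95% critical value, at a rate chance would give in about 1 group of 20. Slc3a2, an amino acid transporter chain, was at 641.7 CPM in IgG-IFNa library 1, with a gap of 0.877 of the group's range. Cd3e was at 810.7 CPM in the same library, with a gap of 0.908. Rn18s took 0.1955% of the counts of IgG-IFNa library 3, with a gap of 0.842.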

How the results depend on the processing

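With other scalings and filters the counts of genes higher and lower stayed within 1.5 times of 246 and 63: RLE scaling gave 240 and 65, upper-quartile scaling 209 and 94 (69% of calls higher against 79.6%), no filter 221 and 59, a stricter minimum count (50) 238 and 73, the authors' normalized values 230 and 73, autosomal genes alone 247 and 67 and the additive model 257 and 82. DESeq2 called 489 and 259, including all 246 and 63 (65.4% higher), and limma voom with sample weights 845 and 608, including 245 and 62 (58.2% higher; UC7-IFNa library 2 had a weight of 0.134). The share of Y-linked transcripts as a covariate gave 139 and 27, leaving out IgG-IFNa libraries 3 and 4 gave 109 and 18. Of alternatives chosen after seeing the data, the covariate without UC7-IFNa library 2 gave 435 and 271, and leaving out all 3 libraries 568 and 335. Leaving out 1 library in turn gave 139 to 566 higher and 28 to 335 lower genes. Leaving out UC7-IFNa library 2 gave the upper ends. The counts also fell by over 1.5 times without IgG-PBS library 1 (158 higher), 2 (36 lower) or 3 (139 and 31), without IgG-IFNa library 3 (38 lower) or 4 (39 lower), without UC7-PBS library 1 (150 and 28), 2 (153 and 36) or 3 (159 and 41), and without UC7-IFNa library 3 (146 and 33). The cause was not tested. Without overlap in either arm there were 617 genes upward and 410 downward when UC7-IFNa library 2 was left out. The difference between arms gave 0 to 1 call with 1 library omitted (1 without UC7-PBS library 1) and 3 with DESeq2. No called gene changed sign in these alternatives, and the median of all genes shifted by at most 0.03. The replicate numbers did not pair the libraries: 18 same-numbered pairs had correlations of deviations from -0.21 to 0.135, 2 of them over 0.1, and 1 of 12 libraries matched its own number best. With the replicate number as a block 119 genes were higher and 24 lower.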

Other observations

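Enzymes of cholesterol synthesis were looked at after Mvk was seen among the called genes, so this list was chosen after values were seen. Of 18 enzymes tested, 6 were called higher and none lower, against 1.61% and 0.411% of all genes, and 17 had a positive averaged log2 fold change, with a median of 0.47. The called genes were Mvk, mevalonate kinase, at 1.20 (edgeR adjusted p = 0.00368), Idi1, isopentenyl diphosphate isomerase, at 0.50, Fdps, farnesyl diphosphate synthase, at 0.64, Sqle at 0.49, Cyp51, lanosterol demethylase, at 0.50, and Msmo1, a sterol oxidase, at 0.49. The medians were 0.47 in the IgG and 0.41 in the UC7 arm, and 10 enzymes were called higher without UC7-IFNa library 2. Without IgG-IFNa libraries 3 and 4, Mvk, Idi1 and Sqle kept their call and Fdps, Cyp51 and Msmo1 did not (edgeR adjusted p = 0.123, 0.0551 and 0.0909). Of the 13 fits that left out 1 library, Mvk and Idi1 were called in 13, Msmo1 in 8, Fdps in 6, and Sqle and Cyp51 in 2. Mvk stood at 37.1, 50.1 and 38.7 CPM in IgG-PBS, 82.2, 82.4, 151 and 170.4 in IgG-IFNa, 63.0, 52.8 and 64.9 in UC7-PBS and 75.1, 139.7 and 113 in UC7-IFNa, without overlap in either arm. Mmab, a cobalamin enzyme gene that lies head to head with Mvk with RefSeq starts 242 bases apart, was at 0.57 (edgeR adjusted p = 0.0299), and at 0.49 and 0.163 without IgG-IFNa libraries 3 and 4; it was called in 5 of 13 fits that left out 1 library. Reads are not separated by strand.

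Other genes outside the lists, named after their values were seen, also rose. Ctss, the lysosomal protease cathepsin S, was at 1.03 (SE 0.12; edgeR adjusted p = 0.000194), with 52.1, 68.0 and 55.6 CPM in IgG-PBS, 126, 126, 138 and 97.1 in IgG-IFNa, 71.2, 63.9 and 66.0 in UC7-PBS and 110.1, 162 and 134 in UC7-IFNa. Gnb4, a G protein beta subunit, was at 1.19 (SE 0.16; adjusted p = 0.00099) and Spi1, the myeloid and B cell factor PU.1, at 1.87 (SE 0.41; edgeR adjusted p = 0.0272), with 0.222, 0.482 and 0.113 CPM in IgG-PBS, 1.31, 0.631, 0.987 and 1.46 in IgG-IFNa, 0.605, 0.409 and 0.493 in UC7-PBS and 1.46, 2.90 and 0.775 in UC7-IFNa. Ctss, Gnb4 and Spi1 did not overlap between treatments in either arm. The call of Spi1 was lost without IgG-IFNa libraries 3 and 4 (1.78; edgeR adjusted p = 0.134) and in 6 of 13 fits that left out 1 library: IgG-PBS 1 or 3, IgG-IFNa 4, or any UC7-PBS library.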
